A study of Arabidopsis thaliana with 12 samples.

Results

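A set of 55 WRKY transcription factor genes of Arabidopsis thaliana was followed through 4 genotypes of whole seedlings. They were taken by gene identifier from the 27436 genes of the deposited tables, and 15 other WRKY genes of the tables were not used here. No cut on measured values picked them, but earlier results of these data were known when they were chosen. By the published classification they fall into subgroup I (10 genes), IIa (3), IIb (8), IIc (12), IId (6), IIe (6) and III (10). The genotypes were the triple mutant pnet2_abc, the double mutants pnet2_ac and pnet2_bc, and wild type of ecotype Col-0 (WT), with 3 libraries each. The mutations hit PNET2A, PNET2B and PNET2C, genes for proteins of the plant nuclear membrane, and the labels name the mutated genes by letter without the alleles. A mutation in C was shared by all 3 mutant genotypes. All seedlings were 7 days old, untreated and raised on MS medium with sucrose. Nothing in the labels tells whether the replicates were grown apart, and the p-values therefore cover no more than the variation among these libraries.

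WRKY proteins bind the W box, a short DNA motif, through a domain named after the conserved peptide at its start and closed by a zinc finger. Subgroup I proteins carry a pair of such domains, and subgroup III proteins have a different zinc finger. Many WRKY genes are switched on within hours of pathogen contact, wounding or salicylic acid, and others act in leaf senescence, phosphate supply or the making of trichomes. Mitogen-activated and calcium-dependent protein kinases phosphorylate several WRKY proteins, and VQ-motif proteins bind members of subgroups I and IIc. WRKY genes are themselves known targets of WRKY proteins, acting in networks in which members raise or lower each other's transcription.

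The coding stretch around the conserved heptapeptide is shown for the member of each subgroup with the largest fitted change in the triple mutant, because the subgroups are defined by this domain. In subgroup III this picked WRKY38, which passed the filter on low counts through the pnet2_abc libraries alone. Its fitted change served only this choice and is not given as a result. Sequences, and all gene positions given below, are from the RefSeq annotation of TAIR10.1. The stretches run 5′ to 3′ on the coding strand for 51 bases, and have the 7 codons of the heptapeptide in capitals.
WRKY25 (subgroup I, chr2:12903777-12903827, minus strand): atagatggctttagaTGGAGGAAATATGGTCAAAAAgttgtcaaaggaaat
WRKY40 (subgroup IIa, chr1:30384774-30384824, plus strand): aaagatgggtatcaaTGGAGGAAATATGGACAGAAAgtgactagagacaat
WRKY6 (subgroup IIb, chr1:23017686-23017736, minus strand): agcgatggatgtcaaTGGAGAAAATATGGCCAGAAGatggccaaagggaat
WRKY50 (subgroup IIc, chr5:9147564-9147614, minus strand): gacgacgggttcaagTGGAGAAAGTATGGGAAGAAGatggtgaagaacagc
WRKY11 (subgroup IId, chr4:15290344-15290394, minus strand): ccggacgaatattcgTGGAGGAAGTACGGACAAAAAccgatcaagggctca
WRKY29 (subgroup IIe, chr4:12292476-12292526, plus strand): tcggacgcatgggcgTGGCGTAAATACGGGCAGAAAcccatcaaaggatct
WRKY38 (subgroup III, chr5:7496187-7496237, minus strand): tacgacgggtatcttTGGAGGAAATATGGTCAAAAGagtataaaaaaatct

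All 10 members of subgroup I encoded 2 heptapeptides and all members of the other subgroups encoded 1. The zinc finger of the subgroup III kind was found in all 10 members of that subgroup and in no other member. The finger of the other kind was found in every member of the other subgroups except WRKY36 of subgroup IIb. WRKY50 and WRKY51 of subgroup IIc were the 2 members whose heptapeptide differed from the canonical one. The 55 genes lay on all 5 chromosomes (10, 16, 3, 14 and 12 genes on chromosomes 1 to 5) and encoded proteins of 109 to 687 residues.

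Since WRKY genes are known WRKY targets, their promoters were searched for the W box, here TTGACC or TTGACT on either strand, from 250 bases before to 50 bases after the annotated start. The 250 bases upstream are shown for 4 members that are described below and that hold 2 W boxes each. Capitals mark the W boxes, which read AGTCAA or GGTCAA where they lie on the other strand.
WRKY29 promoter (subgroup IIe, chr4:12291382-12291631, plus strand): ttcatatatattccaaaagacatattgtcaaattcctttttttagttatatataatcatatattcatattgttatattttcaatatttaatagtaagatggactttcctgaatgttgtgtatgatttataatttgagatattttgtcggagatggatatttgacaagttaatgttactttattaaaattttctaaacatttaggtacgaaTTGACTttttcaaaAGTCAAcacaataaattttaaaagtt
WRKY15 promoter (subgroup IId, chr2:9924636-9924885, plus strand): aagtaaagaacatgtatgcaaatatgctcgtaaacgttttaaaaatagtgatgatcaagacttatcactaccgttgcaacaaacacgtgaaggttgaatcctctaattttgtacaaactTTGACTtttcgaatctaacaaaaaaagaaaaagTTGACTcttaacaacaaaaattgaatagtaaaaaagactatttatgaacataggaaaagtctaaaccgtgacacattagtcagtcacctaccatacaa
WRKY33 promoter (subgroup I, chr2:16107985-16108234, plus strand): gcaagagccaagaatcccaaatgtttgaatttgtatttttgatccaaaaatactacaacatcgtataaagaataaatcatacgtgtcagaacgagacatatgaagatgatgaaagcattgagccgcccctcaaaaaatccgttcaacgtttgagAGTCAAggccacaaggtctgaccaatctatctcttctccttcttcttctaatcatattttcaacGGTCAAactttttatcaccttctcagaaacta
WRKY53 promoter (subgroup III, chr4:12393983-12394232, minus strand): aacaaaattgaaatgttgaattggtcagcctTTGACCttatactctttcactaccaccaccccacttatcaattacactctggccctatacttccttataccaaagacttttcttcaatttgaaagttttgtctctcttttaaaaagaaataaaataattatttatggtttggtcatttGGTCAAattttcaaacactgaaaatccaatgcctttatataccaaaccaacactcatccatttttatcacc

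A W box was present in the window of 22 of the 55 members (40%), against 32.6% of 24387 protein-coding genes. At least 2 W boxes were present in 11 members (20.0%), against 7.63% of protein-coding genes, and WRKY30 held the most with 3. The 5-base core TTGAC, which every W box contains, was present in 36 members (65.5%), against 50.7% of protein-coding genes. None of the 3 subgroup IIa genes held a full W box in this window, while 5 of 10 genes did so in subgroup I and in subgroup III. These matches describe the sequence of a window and not binding.

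Counts summed to 65758625 to 115881203 per library, so 3 counts in a library corresponded to 0.0262 to 0.0436 CPM (counts scaled to 1000000 per library after TMM adjustment). The first principal component of all genes carried 64.3% of the variance and set the 3 pnet2_abc libraries (166 to 190) apart from the other 9 (-69.0 to -45.4). Of the 3 genes annotated with the DUF2215 domain, taken as the targeted family, AT3G49840 averaged 2.17 CPM in pnet2_abc against 9.36 in WT, AT5G67610 11.2 against 21.6, and AT1G28760 47.4 against 3.97. In pnet2_ac and pnet2_bc the same genes averaged 6.69 and 6.81, 22.5 and 14.8, and 5.33 and 4.44 CPM. The labels assign none of them to a letter and name no kind of allele, so these levels do not check the genotypes. The summed level of 8 mesophyll markers was 11500 to 12600 CPM in pnet2_abc against 47400 to 53400 CPM in WT. The 5 senescence markers together stood at 399 to 462 CPM in pnet2_abc against 34.1 to 40.9 CPM in WT, with the defining marker SAG12 at or near 0 in every genotype. The 10 root markers summed to 50.9 to 62.4 CPM in pnet2_abc against 87.9 to 103 CPM in WT. That sum does not stand for all 10, since SCR alone averaged 29.2 CPM in pnet2_abc against 51.9 in WT. The log2 fold change over WT was positive for 4 of the markers, of which 1, RHD6, passed the test described below. The part of these shifts in the WRKY values was not tested, and in whole seedlings fewer cells of a type and less RNA per cell cannot be told apart.

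Levels of different WRKY genes were compared in TPM, which are scaled per transcript length. The 55 members together summed to 1742 ± 74.5 TPM in pnet2_abc, 456.4 ± 19.5 TPM in pnet2_ac, 417.7 ± 11.2 TPM in pnet2_bc and 424 ± 17.9 TPM in WT (SD, n = 3 each). The 3 pnet2_abc libraries lay between 1670 and 1820 TPM and the other 9 between 407 and 479 TPM. TPM were not TMM-adjusted, which limits the comparisons of TPM between genotypes here and in the next paragraph. In TMM-adjusted CPM the members summed to 1672 to 1852 in pnet2_abc and to 507.9 to 566.7 in the other 9 libraries. In WT the highest mean levels were those of WRKY15 (44.9 ± 4.87 TPM), WRKY39 (32.6 ± 0.518 TPM), WRKY1 (26.6 ± 2.23 TPM), WRKY21 (21.9 ± 0.736 TPM) and WRKY33 (20.7 ± 1.62 TPM), and these 5 made up 34.6% of the TPM of the 55 members. In pnet2_abc the order was led by WRKY18 (153 ± 18.3 TPM), WRKY33 (150 ± 13.0 TPM), WRKY15 (144 ± 15.3 TPM), WRKY40 (98.5 ± 14.4 TPM) and WRKY11 (94.2 ± 12.8 TPM), which made up 36.8%. The first 3 of these did not differ beyond their spread.

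The step between neighbours in the WT order was mostly within the spread, since for 48 of 54 neighbouring pairs the ranges of the 3 WT libraries overlapped. WRKY15, WRKY39 and WRKY1 each stood clear of the next member. A mean of at least 50 TPM was reached by 13 members in pnet2_abc and by none in WT. A mean below 1 TPM was found for 6 members in pnet2_abc, 11 in pnet2_ac, 11 in pnet2_bc and 14 in WT, and 9 of the 14 low members of WT were at 1 TPM or more in pnet2_abc. By subgroup, the summed level in pnet2_abc and WT was 299 ± 29.6 and 24.1 ± 2.26 TPM for IIa, 298 ± 14.4 and 33.9 ± 0.519 TPM for IIc, and 201 ± 7.98 and 23.3 ± 4.74 TPM for III. Subgroup IId, the most abundant in WT, stood at 351 ± 23.1 TPM in pnet2_abc and 146 ± 1.74 TPM in WT, and subgroup IIe at 83.3 ± 2.45 and 45.7 ± 4.26 TPM.

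**Figure D1:**
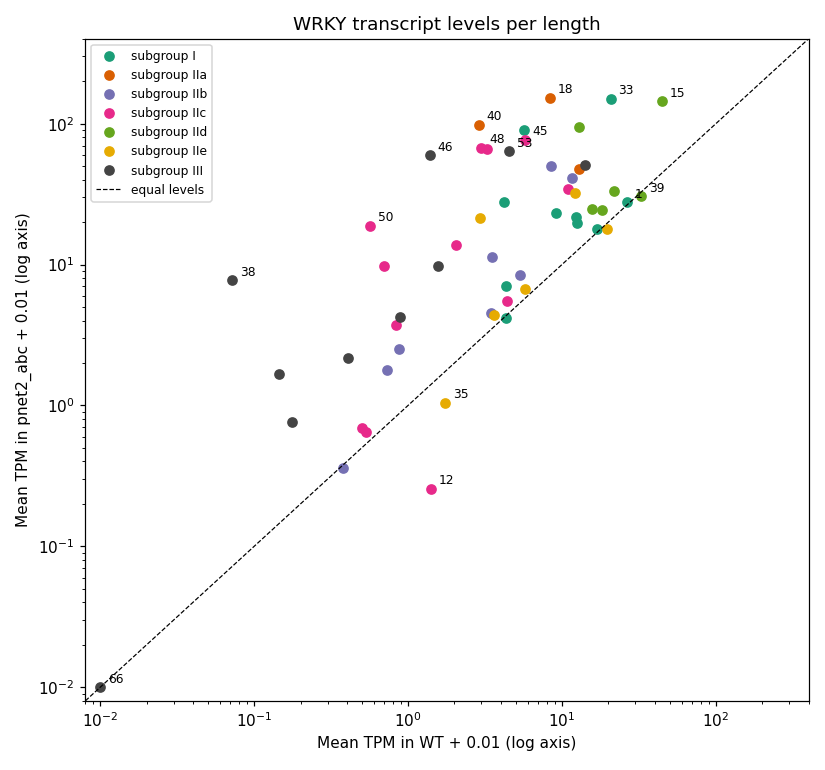
Mean TPM of each WRKY gene in pnet2_abc (vertical) against WT (horizontal), both on log axes after adding 0.01 TPM, coloured by subgroup, with the dashed line marking equal levels and gene numbers beside selected points. Most points lie above the line, WRKY38, WRKY46, WRKY50 and WRKY40 far above it, while WRKY12 and WRKY35 lie below it and WRKY39 and WRKY1 lie close to it.

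The comparison of pnet2_abc with WT asked how the members stand in seedlings with mutations in all 3 genes. Of the 54 members with enough counts to be tested, 36 were higher in pnet2_abc and 4 were lower, while 14 were not called (edgeR's quasi-likelihood test, Benjamini-Hochberg adjusted p under 0.05 over 23330 genes). Among all 23330 genes 32.5% passed the test as higher and 32% as lower, 64.5% in all, against 66.7% higher and 7.41% lower, 74.1% in all, among the members. The members' median log2 fold change was 1.47, against 0.01 for all tested genes. At least 2-fold higher and called were 31 members (16% of all tested genes), and at least 2-fold lower was 1 member, WRKY12 (18% of all tested genes). The pnet2_abc and WT libraries did not overlap for 42 of the 54 members, against 69.4% of all tested genes. WRKY38 and WRKY62 passed the filter on low counts through the pnet2_abc libraries alone and are among the 36, so their calls carry no weight of their own, and WRKY66 did not pass it.

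**Figure D2:**
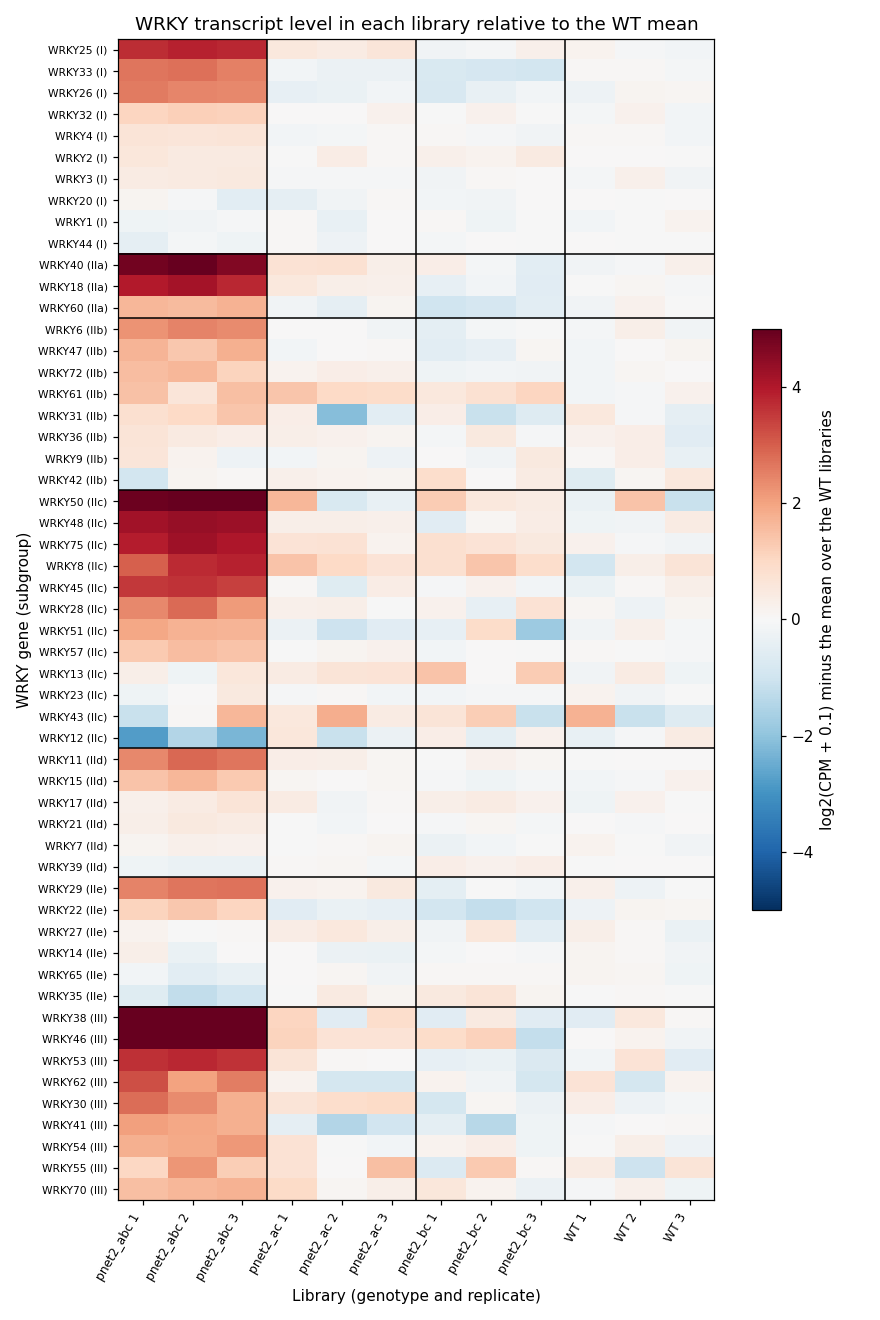
Level of the 54 tested WRKY genes (rows, by subgroup and then by fold change in pnet2_abc) in the 12 libraries (columns), as log2(CPM + 0.1) minus the mean over the 3 WT libraries, with colours saturating at 5 in either direction. The 3 pnet2_abc columns are red for most rows of subgroups IIa, IIc and III and pale for WRKY1, WRKY20, WRKY44 and WRKY14, whose log2 fold changes lie between -0.25 and 0.00.

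Within subgroup I, 7 of 10 members were higher in pnet2_abc and none was lower, with a median log2 fold change of 0.55. Each subgroup count is to be read against the 32.5% of all tested genes that passed as higher and the 32% that passed as lower. WRKY33 (AT2G38470, chr2:16108235-16110766, plus strand), a factor needed for camalexin synthesis and resistance to necrotrophic fungi, was at 185, 199 and 165 CPM in the 3 pnet2_abc libraries, against 30.0, 30.2 and 27.2 CPM in WT. Every pnet2_abc library lay above every WT library, and the log2 fold change was 2.65 ± 0.09 (SE, adjusted p = 6.19e-11). WRKY33 shares 272 bases with AT2G08965 on the other strand, which averaged 0.039 CPM in pnet2_abc and 0.00484 CPM in WT. WRKY25 (AT2G30250, chr2:12903208-12905338, minus strand), known from heat tolerance and from the pathway of the kinase MPK4, was at 91.2, 101 and 95.4 CPM in pnet2_abc, against 7.91, 6.67 and 6.41 CPM in WT. Its log2 fold change was 3.78 ± 0.13 (adjusted p = 5.8e-11), the largest of the subgroup. WRKY26, which acts with WRKY25 and WRKY33 in heat tolerance, also rose (log2 fold change 2.5 ± 0.18, adjusted p = 3.77e-08).

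The other subgroup I members moved less. WRKY32 rose by 1.15 ± 0.12 on the log2 scale (adjusted p = 1.39e-06), and WRKY2, WRKY3 and WRKY4 rose by 0.44 to 0.62. WRKY1, WRKY20 and WRKY44 were not called. WRKY44 (AT2G37260, chr2:15644811-15647076, plus strand), which specifies trichomes and seed coat mucilage, was at 4.03, 5.15 and 4.81 CPM in pnet2_abc, against 5.69, 5.51 and 5.44 CPM in WT, with a log2 fold change of -0.25 (95% interval -0.61 to 0.11, adjusted p = 0.178). Its groups did not overlap, although the test did not call it. WRKY1 was at 32.0, 32.9 and 35.8 CPM in pnet2_abc, against 33.7, 37.1 and 41.9 CPM in WT, with overlapping groups (log2 fold change -0.16, 95% interval -0.44 to 0.11).

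Subgroup IIa holds WRKY18, WRKY40 and WRKY60, which bind one another and act partly redundantly as repressors of defence genes. All 3 rose in pnet2_abc, with a median log2 fold change of 3.99. WRKY40 (AT1G80840, chr1:30383561-30385499, plus strand) was at 77.1, 91.6 and 66.5 CPM in pnet2_abc, against 2.29, 2.48 and 3.17 CPM in WT, a log2 fold change of 4.89 ± 0.23 (adjusted p = 9.29e-10). WRKY18 (AT4G31800, chr4:15382777-15385100, plus strand) was at 157, 183 and 140.2 CPM in pnet2_abc, against 9.92, 10.8 and 9.57 CPM in WT, a log2 fold change of 3.99 ± 0.14 (adjusted p = 6.19e-11). WRKY60 (AT2G25000, chr2:10629662-10631413, plus strand), known to be induced through WRKY18 and WRKY40, moved least, at 41.9, 39.9 and 44.7 CPM in pnet2_abc, against 11.6, 15.4 and 12.9 CPM in WT (log2 fold change 1.67 ± 0.16, adjusted p = 7.76e-07). The groups did not overlap for any of the 3.

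Subgroup IIb had 4 of 8 members higher in pnet2_abc and none lower, with a median log2 fold change of 1.2. WRKY6 (AT1G62300, chr1:23016569-23019494, minus strand), a senescence- and phosphate-related factor, was at 64.3, 74.5 and 70.2 CPM in pnet2_abc, against 12.4, 16.3 and 12 CPM in WT, with no overlap (log2 fold change 2.36 ± 0.14, adjusted p = 7.71e-09). WRKY47 (AT4G01720, chr4:744804-748554, plus strand), which is linked to boron supply, was at 50.8, 40.4 and 53.3 CPM in pnet2_abc, against 14.1, 15.8 and 17.4 CPM in WT (log2 fold change 1.61 ± 0.16, adjusted p = 1.16e-06). WRKY72 and WRKY61 rose by 1.48 and 1.31 on the log2 scale. WRKY9, WRKY31, WRKY36 and WRKY42 were not called, and WRKY42, a phosphate-related factor, averaged 0.5 CPM in pnet2_abc and 0.614 CPM in WT.

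Subgroup IIc, the largest, had 8 of 12 members higher, 1 lower and 3 not called, with a median log2 fold change of 2.24. WRKY50 (AT5G26170, chr5:9146879-9148391, minus strand), which together with WRKY51 mediates the repression of jasmonate responses by salicylic acid, was at 11.5, 12.9 and 12.6 CPM in pnet2_abc, against 0.210, 0.959 and 0.0810 CPM in WT. Its WT libraries were all below 1 CPM and differed more than 10-fold among themselves, and the log2 fold change was 4.90 ± 0.84 (adjusted p = 0.000175). WRKY48 (AT5G49520, chr5:20090648-20093346, plus strand), a repressor of basal resistance to bacteria, was at 74.3, 81.6 and 78.3 CPM in pnet2_abc, against 3.34, 3.49 and 5.18 CPM in WT (log2 fold change 4.29 ± 0.22, adjusted p = 1.85e-09). WRKY75 (AT5G13080, chr5:4149738-4151201, minus strand), which acts in phosphate starvation and senescence, was at 28.9, 36.3 and 31.7 CPM in pnet2_abc, against 2.15, 1.77 and 1.59 CPM in WT (log2 fold change 4.13 ± 0.19, adjusted p = 6.59e-10). All 3 were separated from WT in every library.

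WRKY45, WRKY8, WRKY28, WRKY51 and WRKY57 of the same subgroup rose by 1.42 to 3.59 on the log2 scale. The call for WRKY51 (log2 fold change 1.94 ± 0.66, adjusted p = 0.0204) was lost when WT replicate 1, WT replicate 3 or pnet2_abc replicate 1 was left out. The lower member was WRKY12 (AT2G44745, chr2:18447203-18449093, minus strand), known from secondary walls of pith cells and from flowering time. It falls outside the rule for naming genes, its mean being under 1 CPM, and was chosen after its values were seen. WRKY12 was at 0.0545, 0.284 and 0.121 CPM in pnet2_abc, against 0.736, 0.930 and 1.32 CPM in WT, a log2 fold change of -2.70 ± 0.67 (adjusted p = 0.00301). WRKY23, an auxin-responsive member, and WRKY13 and WRKY43, which were under 1 CPM, were not called.

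Subgroups IId and IIe had the lowest medians. In IId 4 of 6 members were higher and 1 was lower (median log2 fold change 0.42), and in IIe 2 of 6 were higher and 2 lower (median 0.03). The shares of IIe, 33.3% in each direction, were near the 32.5% higher and 32% lower of all tested genes. WRKY11 (AT4G31550, chr4:15289788-15291934, minus strand), a calmodulin-binding repressor of basal resistance, was at 81.9, 113 and 98.5 CPM in pnet2_abc, against 15.2, 15.5 and 15.7 CPM in WT (log2 fold change 2.66 ± 0.12, adjusted p = 4.69e-10). WRKY15 (AT2G23320, chr2:9924886-9926372, plus strand), which acts in leaf growth and osmotic stress responses, was at 107, 126 and 99.4 CPM in pnet2_abc, against 35.95, 38.4 and 46.3 CPM in WT (log2 fold change 1.46 ± 0.10, adjusted p = 4.39e-08). Both were separated from WT in every library. WRKY21 rose by 0.40 ± 0.08 (adjusted p = 0.000572), and WRKY17, a close relative of WRKY11, by 0.44 ± 0.15 (adjusted p = 0.0235), a call that was lost without WT replicate 1, WT replicate 3 or pnet2_abc replicate 3.

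WRKY39 (AT3G04670, chr3:1266056-1268378, minus strand), a heat-responsive member of IId, was the one that fell in its subgroup. It was at 41.5, 38.3 and 38.8 CPM in pnet2_abc, against 47.7, 49.3 and 49.4 CPM in WT (log2 fold change -0.30 ± 0.07, adjusted p = 0.00218). The groups did not overlap, but with library size alone as the scaling the change was -0.11 and was not called (adjusted p = 0.214).

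In subgroup IIe, WRKY22 and WRKY29, which act downstream of the flagellin receptor and its kinase cascade, both rose. WRKY29 (AT4G23550, chr4:12291632-12293367, plus strand) was at 15.9, 18.3 and 19.2 CPM in pnet2_abc, against 3.38, 2.35 and 2.75 CPM in WT (log2 fold change 2.65 ± 0.19, adjusted p = 4.72e-08). It shares 251 bases with AT4G23560 on the other strand, and reads from both strands may have been counted together. That neighbour averaged 1.92 CPM in pnet2_abc and 0.794 CPM in WT. WRKY22 (AT4G01250, chr4:522530-524249, minus strand) was at 24.2, 28.8 and 24.0 CPM in pnet2_abc, against 9.52, 12.4 and 12.1 CPM in WT (log2 fold change 1.18 ± 0.13, adjusted p = 3.46e-06), with no overlap.

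The members of IIe that fell were WRKY35 and WRKY65. WRKY35 (AT2G34830, chr2:14693696-14696803, minus strand) was at 1.45, 0.894 and 1.09 CPM in pnet2_abc, against 2.18, 2.34 and 2.20 CPM in WT (log2 fold change -0.97 ± 0.26, adjusted p = 0.00538). WRKY65 (AT1G29280, chr1:10236337-10237990, plus strand) was at 19.2, 14.4 and 16.1 CPM in pnet2_abc, against 22.8, 22.4 and 17.9 CPM in WT (log2 fold change -0.35 ± 0.12, adjusted p = 0.0234). The groups overlapped for WRKY65, and its call was lost when WT replicate 1 or 2 or pnet2_abc replicate 2 or 3 was left out. WRKY14 and WRKY27 stood at log2 fold changes of 0.00 and 0.05 and were not called.

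Subgroup III had 8 of its 9 tested members higher in pnet2_abc and none lower, with a median log2 fold change of 2.43. WRKY38 and WRKY62 are among the 8 and in the median, and they passed the filter on low counts only through the pnet2_abc libraries. WRKY38 (AT5G22570, chr5:7495455-7496990, minus strand), which together with WRKY62 represses basal defence, was at 5.02, 7.38 and 5.79 CPM in pnet2_abc. In WT it was at 0 in replicate 1 and at 0.116 and 0.0540 CPM in the other two, not far above the level that 3 counts give. Because it was tested only through its pnet2_abc libraries, and its fitted log2 fold change ranged from 3.03 to 7.74 over the alternatives, no fold is given as a result. WRKY46 (AT2G46400, chr2:19043411-19044955, minus strand), which acts with WRKY54 and WRKY70 in brassinosteroid and drought responses, was at 44.04, 55.2 and 46.7 CPM in pnet2_abc, against 1.29, 1.45 and 1.13 CPM in WT (log2 fold change 5.23 ± 0.44, adjusted p = 2.44e-07). WRKY53 (AT4G23810, chr4:12392370-12393982, minus strand), a positive regulator of leaf senescence, was at 56.7, 61.8 and 55.3 CPM in pnet2_abc, against 3.99, 7.28 and 2.996 CPM in WT (log2 fold change 3.61 ± 0.28, adjusted p = 1.07e-07). WRKY53 overlaps AT4G23800 on the other strand by 341 bases, and that gene moved the opposite way (19.7 CPM in pnet2_abc and 60.6 CPM in WT).

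WRKY70 (AT3G56400, chr3:20908711-20910623, minus strand), which tips responses from jasmonate towards salicylic acid, was at 41.3, 45.97 and 48.5 CPM in pnet2_abc, against 13.8, 17.2 and 12.5 CPM in WT (log2 fold change 1.64 ± 0.23, adjusted p = 3.65e-05). Its partner WRKY54 (AT2G40750, chr2:17000419-17002528, minus strand) was at 3.22, 3.46 and 4.27 CPM in pnet2_abc, against 0.841, 1.08 and 0.702 CPM in WT (log2 fold change 2.06 ± 0.34, adjusted p = 0.000133). Both were separated from WT in every library. WRKY30 and WRKY41 rose by 2.43 and 2.23 on the log2 scale, and WRKY41 shares 517 bases with AT4G11080, which fell (9.30 CPM in pnet2_abc and 22.5 CPM in WT). WRKY62 was likewise tested only through its pnet2_abc libraries, so no fold is given and its call carries no weight of its own. That call (edgeR adjusted p = 0.0442) was lost when any pnet2_abc library, pnet2_bc replicate 1 or 2, or WT replicate 2 or 3 was left out. The adjusted p then reached up to 0.131. WRKY55, at 0.512 CPM in pnet2_abc and 0.129 CPM in WT, was not called. WRKY66 had no count in pnet2_abc, pnet2_bc or WT, which allows up to 3 counts in each library, and its only counts were in pnet2_ac replicate 1 (0.0437 CPM).

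**Figure D3:**
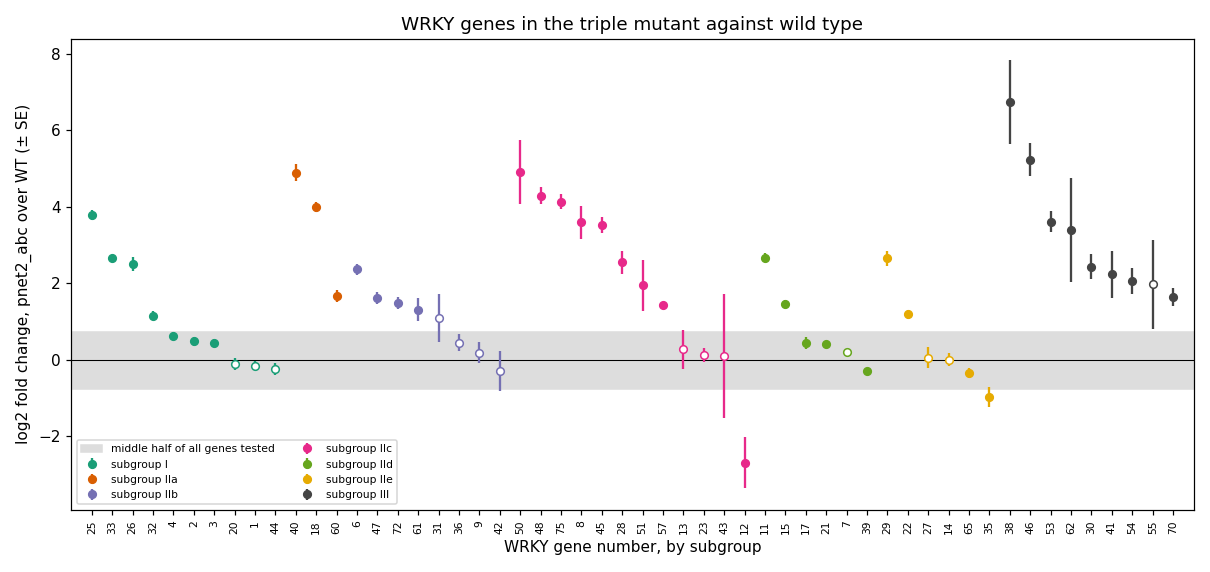
Log2 fold change of each tested WRKY gene in pnet2_abc over WT (± SE), with genes named by number along the horizontal axis, grouped and coloured by subgroup, filled points for genes called at an adjusted p under 0.05 and open points for the others. The grey band spans the interquartile range of all tested genes, which the filled points of subgroups IIa and III all exceed, while subgroups IId and IIe have points above, within and, for WRKY35, below it.

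The calls of members with and without a W box are set side by side as a description. Each count is to be read against the 32.5% of all tested genes that passed as higher and the 32% that passed as lower. Those shares were not split by W box, and the difference between the sets was not tested. Of the 22 tested members with a W box 17 were higher in pnet2_abc and 1 was lower (median log2 fold change 2.33), and of the 32 without one 19 were higher and 3 lower (median 0.86). WRKY62 is among the 17 and WRKY38 among the 19, and their calls carry no weight of their own. WRKY33, WRKY53, WRKY29 and WRKY15, whose promoters are printed above, all rose, as did WRKY18 and WRKY40, which held no full W box. WRKY12 held 1 W box and was lower.

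The triple mutant was also compared with each double mutant, which asks how a mutation in the remaining gene goes with the WRKY levels. These comparisons use the same pnet2_abc libraries as the comparison with WT, and their values are given side by side only as descriptions. Against pnet2_ac, 35 of 54 members were higher in pnet2_abc and 4 were lower, with 30.7% of all genes passing as higher and 32.2% as lower, 62.9% in all. The libraries of pnet2_abc and pnet2_ac did not overlap for 41 members, against 70% of all genes. Against pnet2_bc, 35 members were higher and 4 were lower, with 31.8% of all genes passing as higher and 32.3% as lower, 64.1% in all. The libraries of pnet2_abc and pnet2_bc did not overlap for 39 members, against 71% of all genes. The members' median log2 fold change was 1.36 against pnet2_ac and 1.57 against pnet2_bc, with medians of -0.01 and 0.00 over all tested genes. WRKY38 and WRKY62 are among the 35 in both comparisons, and their calls again carry no weight of their own. The members called lower were WRKY12, WRKY35, WRKY39 and WRKY65 in both comparisons. The call for WRKY65 against pnet2_ac, where the groups overlapped, was lost without pnet2_ac replicate 1 or 2 or pnet2_abc replicate 2 or 3 (adjusted p up to 0.116), and that against pnet2_bc without pnet2_abc replicate 2 (adjusted p = 0.0539). The call for WRKY39 against pnet2_ac was lost with limma on TPM (adjusted p up to 0.0655).

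The subgroups stood in a similar order in both. Against pnet2_ac the medians were 3.63 for IIa, 3.43 for III, 2.47 for IIc, 0.74 for IIb, 0.59 for I, 0.39 for IId and -0.06 for IIe. Against pnet2_bc they were 4.36 for IIa, 3.10 for III, 2.16 for IIc, 1.00 for IIb, 0.58 for I, 0.38 for IId and 0.05 for IIe. Both medians for III include WRKY38 and WRKY62. WRKY46 stood at log2 fold changes of 4.34 ± 0.42 against pnet2_ac and 4.60 ± 0.43 against pnet2_bc (adjusted p = 9.43e-07 and 5.89e-07). WRKY33 stood at 2.90 ± 0.09 against pnet2_ac and 3.49 ± 0.09 against pnet2_bc, and WRKY40 at 4.27 ± 0.22 and 4.97 ± 0.23 in the same order of comparisons.

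A few members were called in some comparisons of the triple mutant and not in others. WRKY61 was called against WT, where the WT libraries were at 1.00, 1.06 and 1.32 CPM, and not against pnet2_ac (3.07, 2.36 and 2.20 CPM) or pnet2_bc (1.68, 1.97 and 2.46 CPM). In pnet2_abc it was at 3.29, 1.76 and 3.35 CPM, overlapping both doubles but not WT. WRKY17 was called against WT alone, WRKY2 against WT and pnet2_ac, and WRKY7 against pnet2_bc alone. The call for WRKY2 against pnet2_ac (adjusted p = 0.024) was lost without pnet2_ac replicate 1 or 3 or pnet2_abc replicate 1 (adjusted p up to 0.106). WRKY31 was called against both doubles (adjusted p = 0.0369 for pnet2_ac and 0.0482 for pnet2_bc) and not against WT (log2 fold change 1.09, 95% interval -0.35 to 2.52), and both calls rested on single libraries. The call against pnet2_ac was lost without pnet2_abc replicate 2 or 3 or pnet2_ac replicate 2 or 3, and that against pnet2_bc without any pnet2_abc or WT library, pnet2_ac replicate 3 or pnet2_bc replicate 2 or 3.

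**Figure D4:**
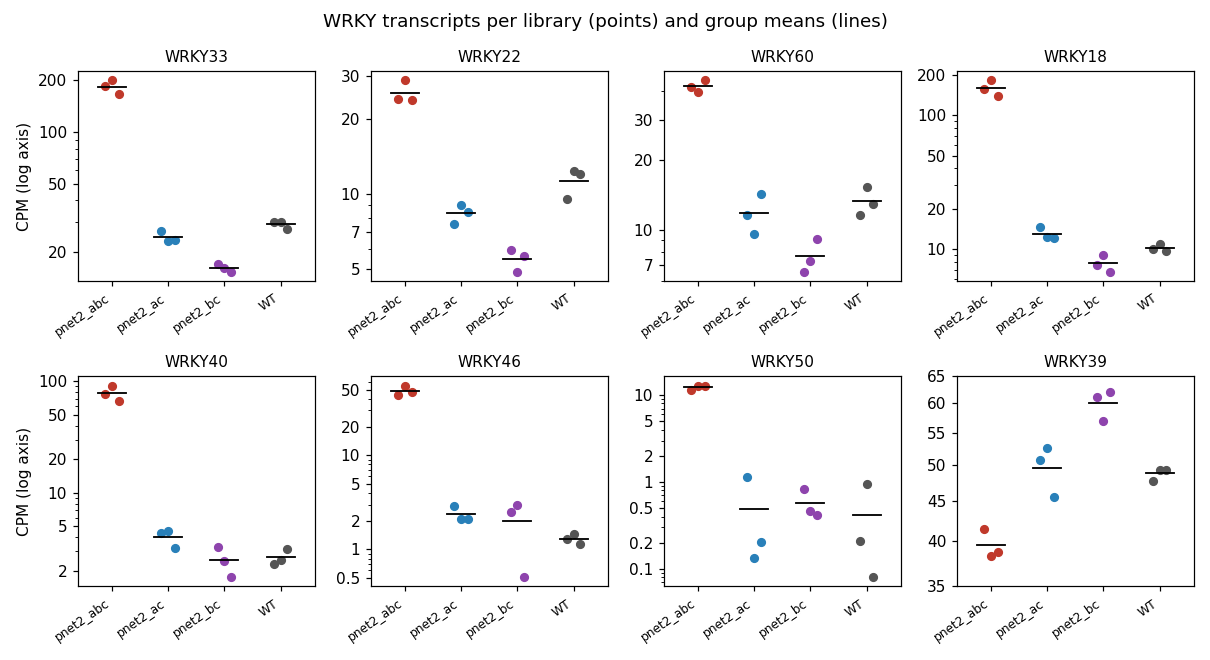
CPM of 8 WRKY genes in each library (points) with group means (lines) for pnet2_abc, pnet2_ac, pnet2_bc and WT, on log axes that differ between panels. WRKY33, WRKY22 and WRKY60 are highest in pnet2_abc and lowest in pnet2_bc, WRKY39 is lowest in pnet2_abc, and 1 pnet2_bc library of WRKY46 stands at 0.510 CPM, below the other two.

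The comparison of pnet2_bc with WT asked how the members stand with B and C mutated. In pnet2_bc, 3 members were lower than in WT and none was higher, with 0.343% of all genes passing as lower and 0.3% as higher, 0.643% in all. The libraries did not overlap for 13 members, against 17% of all genes. At an unadjusted edgeR p under 0.05, 6 members were higher and 5 lower, with 11.1% of all genes passing in either direction. DESeq2 called WRKY39 and WRKY75 higher, with 1.26% of all genes passing as higher. WRKY33 was at 17.2, 16.3 and 15.5 CPM in pnet2_bc, against 30.0, 30.2 and 27.2 CPM in WT (log2 fold change -0.84 ± 0.09, adjusted p = 0.00232). WRKY22 was at 5.95, 4.87 and 5.60 CPM in pnet2_bc, against 9.52, 12.4 and 12.1 CPM in WT (log2 fold change -1.05 ± 0.13, adjusted p = 0.00508). For both genes every pnet2_bc library lay below every WT library, and both calls held when any 1 library was left out.

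WRKY60 was at 6.56, 7.30 and 9.06 CPM in pnet2_bc, against 11.6, 15.4 and 12.9 CPM in WT, again without overlap. Its log2 fold change was -0.80 ± 0.16 (adjusted p = 0.0444), and the call was lost in 12 of 22 alternatives, with adjusted p up to 0.185. These included leaving out any WT library, pnet2_bc replicate 1 or 2, pnet2_ac replicate 1 or any pnet2_abc library. The partners of WRKY60 in subgroup IIa were not called in pnet2_bc, WRKY18 at a log2 fold change of -0.37 (95% interval -0.66 to -0.08, adjusted p = 0.249) and WRKY40 at -0.08 (95% interval -0.59 to 0.42). WRKY29, the relative of WRKY22, stood at -0.23 (95% interval -0.66 to 0.20).

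All 3 genes that fell in pnet2_bc rose in pnet2_abc. Relative to WT, WRKY33 was at log2 fold changes of 2.65 in pnet2_abc and -0.84 in pnet2_bc, WRKY22 at 1.18 and -1.05, and WRKY60 at 1.67 and -0.80. Tested directly, pnet2_abc was higher than pnet2_bc by 3.49 ± 0.09 for WRKY33 (adjusted p = 2.07e-11), 2.23 ± 0.14 for WRKY22 (adjusted p = 1.04e-08) and 2.46 ± 0.16 for WRKY60 (adjusted p = 2.29e-08).

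The comparison of pnet2_ac with WT asked the same with A and C mutated. No member was called in either direction by edgeR, with 0.45% of all genes passing as higher and 0.69% as lower, 1.14% in all. The libraries did not overlap for 15 members, against 19.6% of all genes. At an unadjusted edgeR p under 0.05, 9 members were higher and 2 lower, with 14.6% of all genes passing in either direction. DESeq2 called WRKY25 and WRKY61 higher, with 1.81% of all genes passing as higher, and limma on the TPM values called none. WRKY25 was the nearest to a call, at 10.14, 9.35 and 10.5 CPM in pnet2_ac against 7.91, 6.67 and 6.41 CPM in WT (log2 fold change 0.52, 95% interval 0.25 to 0.79, adjusted p = 0.0559). The groups did not overlap for WRKY25. WRKY61 stood at a log2 fold change of 1.17 (95% interval 0.47 to 1.88, adjusted p = 0.0895).

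Of the members that rose in the triple mutant, WRKY40, WRKY46, WRKY33 and WRKY70 stood closer to WT in pnet2_ac, without being called. WRKY40 was at 4.40, 4.56 and 3.21 CPM in pnet2_ac (log2 fold change 0.62 over WT, 95% interval 0.13 to 1.11, adjusted p = 0.191). WRKY46 was at 2.90, 2.12 and 2.13 CPM (log2 fold change 0.89, 95% interval -0.06 to 1.85, adjusted p = 0.343). WRKY33 was at 26.6, 23.4 and 23.7 CPM, below every WT library (log2 fold change -0.25, 95% interval -0.44 to -0.05, adjusted p = 0.196). WRKY70 was at 28.4 CPM in pnet2_ac replicate 1 and at 15.6 and 17.8 CPM in the other two, within or close to the WT range of 12.5 to 17.2 CPM.

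**Figure D5:**
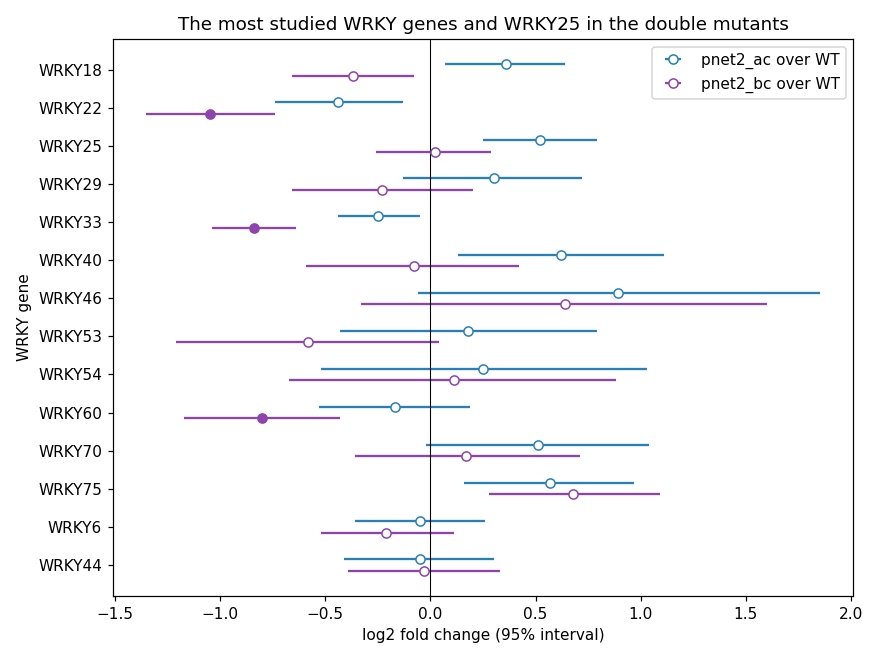
Log2 fold change over WT with its 95% interval for 14 WRKY genes in pnet2_ac and pnet2_bc, with filled points for called genes. WRKY22, WRKY33 and WRKY60 in pnet2_bc are the filled points, all below 0, and WRKY75 lies above 0 in both double mutants without being called.

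Between the double mutants, 2 members were higher in pnet2_ac than in pnet2_bc and none was lower, with 0.129% of all genes passing in each direction, 0.257% in all. The libraries did not overlap for 12 members, against 18.1% of all genes. WRKY33 was at 26.6, 23.4 and 23.7 CPM in pnet2_ac, against 17.2, 16.3 and 15.5 CPM in pnet2_bc (log2 fold change 0.59 ± 0.09, adjusted p = 0.0231). WRKY18 was at 14.5, 12.3 and 12.1 CPM in pnet2_ac, against 7.59, 9.08 and 6.76 CPM in pnet2_bc (log2 fold change 0.73 ± 0.12, adjusted p = 0.0371). The libraries did not overlap for either gene, but both calls rested on single libraries. The call for WRKY33 was lost without pnet2_ac replicate 2 or 3 or any pnet2_bc library (adjusted p up to 0.0731), and that for WRKY18 without any pnet2_ac or WT library or pnet2_bc replicate 1 or 3 (adjusted p up to 0.157). At an unadjusted edgeR p under 0.05, 11 members were higher in pnet2_ac and 1 was lower, with 10.9% of all genes passing in either direction. DESeq2 called 7 higher and 1 lower, with 1.04% of all genes passing as higher and 1.11% as lower. WRKY22 (log2 fold change 0.61, 95% interval 0.30 to 0.92, adjusted p = 0.0954) and WRKY60 (0.63, 95% interval 0.26 to 0.99, adjusted p = 0.143) were not called.

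The genes around the WRKY family were described with lists chosen for their place in the pathway, and each count is to be read against the 32.5% of all genes that passed as higher and the 32% that passed as lower. Of 12 kinases known to act upstream of WRKY proteins, 11 were higher in pnet2_abc than in WT and CPK11 was lower, with a median log2 fold change of 1.04. CPK6, a calcium-dependent kinase, averaged 72.5 CPM in pnet2_abc and 22.6 CPM in WT (log2 fold change 1.68 ± 0.11, adjusted p = 2.54e-08). MKK4 and MPK3, which form part of the cascade that phosphorylates WRKY33, rose by 1.63 ± 0.14 and 1.58 ± 0.09 on the log2 scale (adjusted p = 1.94e-07 and 6.34e-09). MPK3 was at 131, 128 and 112 CPM in pnet2_abc, against 40.3, 42.3 and 41.4 CPM in WT. None of the 12 was called in pnet2_ac or in pnet2_bc against WT.

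Of 7 tested genes for VQ-motif partners 4 were higher in pnet2_abc and none was lower (median log2 fold change 0.30). That is 57.1% called, under the 64.5% of all genes, and an eighth, VQ29, had too few counts. JAV1, a repressor of jasmonate defence that binds WRKY51, was at 23.03, 28 and 22.9 CPM in pnet2_abc, against 3.26, 3.54 and 5.41 CPM in WT (log2 fold change 2.60 ± 0.25, adjusted p = 8.21e-07). SIB1, a partner of WRKY33, rose by 1.97 ± 0.34 (adjusted p = 0.000197), and MKS1, which links MPK4 to WRKY25 and WRKY33, by 1.55 ± 0.27 (adjusted p = 0.000217). The fourth was MVQ1, at 0.30 ± 0.08.

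Among 20 tested genes reported as WRKY targets 14 were higher in pnet2_abc, and PHO1 and GL2 were lower (median log2 fold change 1.67). These were 70% and 10% of the list, and 9 were called higher when a gene had to average 5 CPM or more to be tested. RRTF1, a stress-induced ERF factor bound by WRKY40, was at 27.9, 33.8 and 18.7 CPM in pnet2_abc, against 0.0525, 0 and 0.0540 CPM in WT (log2 fold change 9.46 ± 0.95, adjusted p = 1.27e-06). The WT levels of RRTF1 were 0 or not far above the level that 3 counts give. Its fitted log2 fold change ranged from 4.96 to 9.84 over the alternatives, so the size of the rise is uncertain. PR1, the marker of the salicylic acid response, was at 156, 215 and 140.4 CPM in pnet2_abc, against 0.525, 1.69 and 0 CPM in WT (log2 fold change 7.88 ± 1.75, adjusted p = 0.00142). In the doubles PR1 was at 15.9, 0.106 and 0.463 CPM in pnet2_ac and at 16.1, 1.48 and 0.179 CPM in pnet2_bc, with replicate 1 far above the others in each, and was not called. ABI4, an abscisic acid response factor, was at 0.327, 0.128 and 0.193 CPM in pnet2_abc and had no count in the other 9 libraries, so it was at least 15.8-fold higher than in WT, where 3 counts over the group set the limit. ABI4 passed the filter on low counts only through the pnet2_abc libraries, so its call carries no weight of its own, although it is counted among the 14. That call (adjusted p = 0.0123) was lost with the replicate number as a block (adjusted p = 0.0506). PHO1, the phosphate exporter repressed by WRKY6 and WRKY42, averaged 38.9 CPM in pnet2_abc and 91.0 CPM in WT (log2 fold change -1.22 ± 0.16, adjusted p = 1.55e-05), and GL2, a target of WRKY44 in trichomes, 2.73 and 8.75 CPM (log2 fold change -1.68 ± 0.20, adjusted p = 8.36e-06).

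All 8 mesophyll markers were lower in pnet2_abc (median log2 fold change -2.22), with CAB3 at -3.14 ± 0.18, LHCA1 at -2.67 ± 0.08 and LHCB1.1 at -2.33 ± 0.09, all genes for light-harvesting proteins. Of 10 root markers 3 were lower and 1 was higher. That is 30% lower and 10% higher, not above the shares of all genes. The lower ones were SHR (-1.56 ± 0.17), SCR (-0.83 ± 0.11) and CASP1 (-0.78 ± 0.23), which act in the root endodermis. The higher one was RHD6 (0.69 ± 0.29, edgeR adjusted p = 0.0499). CASP2, COBL9 and EXP7 (-0.42, -0.41 and -0.1) were not called. PLT1, PLT2 and WOX5 (0.2, 0.86 and 1.71) were not called either. All 4 tested senescence markers were higher (median log2 fold change 3.32), with SAG13 at 6.10 ± 0.60, ORE1 at 3.34 ± 0.21 and SAG101 at 3.30 ± 0.15, and none of the 3 tested seed markers was called. In the double mutants 1 gene of these marker lists was called, PRK of the Calvin cycle, at 1280.0, 1200.0 and 1223 CPM in pnet2_ac against 1567, 1575 and 1672 CPM in WT (log2 fold change -0.38 ± 0.05, adjusted p = 0.01). The part of the cell type shifts in the WRKY differences was not tested.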

How the data were processed

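Messenger RNA of 12 libraries (3 each of pnet2_abc, pnet2_ac, pnet2_bc and WT) was measured by sequencing. The deposited counts are whole reads per gene that were not normalized, and the submitters' processing notes name HISAT2 2.0.4, HTSeq 0.6.1p1 and the build TAIR10. The deposited TPM were made by the authors with kallisto, per the file headers and names, and sum to 1000000 per library. The strand setting of the counting is not given in the sources used here. Of the 27436 gene identifiers 27173 matched the TAIR10.1 annotation, all 55 members among them, and 15 other WRKY genes in the table were not used here.

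Counts were filtered with filterByExpr (about 0.132 CPM in at least 3 libraries), scaled by TMM and fitted with edgeR 4.0.16 in R 4.3.3 as 1 quasi-likelihood model of 12 libraries with 8 residual degrees of freedom. All 6 comparisons of genotypes were tested, with Benjamini-Hochberg adjustment over 23330 genes and a threshold of 0.05. Each SE was derived from the test, as the absolute log2 fold change divided by the square root of the F statistic. The 95% intervals used these SEs with the 8 residual degrees of freedom, so they need not match the p-values exactly. CPM are the deposited counts scaled to 1000000 per library after TMM adjustment. Limits of 3 counts cover counting error only. Alternatives used DESeq2 1.42.0, limma 3.58.1 on log2(TPM + 0.5) and log2(TPM + 1), other scalings and filters, each library left out, and the replicate number as a block. Replicate numbers did not pair the samples.

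Genes were named by a rule: members called in a double mutant, the largest changes of each subgroup at a mean of at least 1 CPM, the most studied members, those without enough counts, and the 5 highest in WT. From each pathway list the 3 called genes with the largest change were named. The members, lists and rules were chosen with earlier results of these data known.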

Additional observations from a re-analysis of the deposited data

Results flagged for a closer look

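Both members called between the double mutants were singled out because they passed a direct test of pnet2_ac against pnet2_bc. WRKY33 was higher in pnet2_ac than in pnet2_bc by 0.59 on the log2 scale, with all 3 pnet2_ac libraries above all 3 pnet2_bc libraries (edgeR adjusted p = 0.0231). WRKY18 was higher in pnet2_ac than in pnet2_bc by 0.73, again in 3 of 3 libraries (adjusted p = 0.0371). Neither call was kept under all of the 22 alternatives, and no member was called when pnet2_ac replicate 2, pnet2_ac replicate 3, pnet2_bc replicate 1 or pnet2_bc replicate 3 was left out.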

How the results depend on the processing

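None of the members' log2 fold changes that were called reversed under any of the 22 alternatives. In pnet2_abc against WT the count of higher members ran from 26 to 40 over the alternatives and from 33 to 36 when each library was left out, and that of lower members from 3 to 4 when each was left out, with 2 lower under library size alone, a mean of at least 5 CPM and limma with either pseudocount. The 26 came at a mean of at least 5 CPM, where 12 of the 40 called members were not tested. Of the 28 members tested under every alternative 25 kept the call (not WRKY17, WRKY39 and WRKY65), and of the 12 others 10 kept it where tested (not WRKY51 and WRKY62). Against pnet2_ac the triple mutant had 33 to 35 higher and 3 to 4 lower with each library left out, and 2 lower at a mean of at least 5 CPM and with limma. Against pnet2_bc it had 33 to 35 higher and 3 to 5 lower with each left out, and 2 lower at a mean of at least 5 CPM. In pnet2_ac against WT 1 member was higher under library size alone, 2 with DESeq2 and 1 at a mean of at least 5 CPM, and 0 to 2 with each library left out. In pnet2_bc against WT DESeq2 called 2 higher, and leaving out each library gave 0 to 1 higher and 2 to 3 lower. WRKY46 was called higher than WT in both doubles without pnet2_bc replicate 3. Between pnet2_ac and pnet2_bc the count of higher members was 7 with DESeq2 (and 1 lower), 1 with limma, 1 with only these genotypes in the fit, 0 to 2 with each library left out and 0 without both WT replicate 1 and pnet2_ac replicate 2. The causes were not tested. The looser motif TTGAC was present in 36 members, since it is contained in every W box. With the replicate block, 37 members were higher and 4 lower in pnet2_abc against WT, and the counts of the other comparisons did not change. The numbers did not pair the samples, with correlations of same-numbered libraries from -0.03 to 0.07. Library size alone moved the median of all genes in pnet2_abc against WT by over 0.1, to 0.205 in place of 0.011, against pnet2_ac to 0.124 in place of -0.012 and against pnet2_bc to 0.157 in place of 0.001. It also moved the share of higher among called genes to 60.2% in place of 50.4% in pnet2_abc against WT, 67.6% in place of 39.5% in pnet2_ac against WT, 61% in place of 46.7% in pnet2_bc against WT, and 61.8% in place of 50% between the doubles. A count of 0 allows a level of up to 0.0262 to 0.0436 CPM, depending on the library.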
